A study of Mus musculus with 4 samples.

Results

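The data described here are the levels of 9 genes for digestive proteases of the pancreas in mouse liver and spleen: the trypsinogen genes Prss2, Prss3, Try5 and 2210010C04Rik, the chymotrypsinogen genes Ctrb1, Ctrl and Ctrc, and the procarboxypeptidase genes Cpa1 and Cpb1. They were chosen by name among 27670 gene labels on an Agilent whole mouse genome array, and 11 of its 41174 probes read them. 8 genes were found by the gene name in the scanner files and Try5 by the RefSeq accession of its probe, which the files call 1810049H19Rik, a synonym of Try5. Prss3 and 2210010C04Rik have 2 probes each, and the brightest probe of a gene over all arrays was used. All 9 genes were measured in both tissues. RefSeq lists Ctrc as a transcribed pseudogene, and it is counted among the 9 by its name.

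Male C57BL/6J mice aged 13 weeks were fed for 4 weeks. The control pools come from mice on a purified diet that held 0.03% nucleic acids, called low NP, and the treated pools from mice on the same diet with 1.2% of a nucleoprotein product, called NP, which brought nucleic acids to 0.5%. Total RNA was pooled within each diet and tissue before hybridisation, which gives 4 kinds of pool, and the labels do not state how many mice a pool holds. Each tissue was run on 2 arrays with 2 colours, array 1 with the NP pool labelled by Cy5 and array 2 with the dyes exchanged, which the labels call a dye swap. Such a pair is counted here as 1 replicate per diet and tissue. No test between diets or tissues is therefore possible, and the agreement of the arrays speaks for the hybridisation only. The labels number the pooled samples in step with the dyes, so separate pools on the arrays of a tissue cannot be told apart from 1 pool labelled with both dyes. A pool below means the RNA of 1 diet and tissue on both arrays.

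These enzymes are made by the acinar cells of the exocrine pancreas, stored as inactive zymogens in secretory granules and released into the gut. There enteropeptidase activates trypsinogen, and trypsin in turn activates the other zymogens. Trypsins cleave proteins after basic residues, chymotrypsins after large hydrophobic ones, and the carboxypeptidases remove residues from the carboxyl end. Liver and spleen are not known as main sites of their synthesis, and the tail of the pancreas lies against the spleen.

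The trypsinogen genes are close paralogs that lie in a cluster on chromosome 6, so the letters of the probes show what each spot reads. The probes shown here are those of the trypsinogen and chymotrypsinogen genes that the values below rest on, with 60 bases each and with positions in mm7, the build of the scanner files. They are in lower case because no base is singled out. The brightest probe of Prss2 lies at chr6:41455008-41455067, that of Prss3 at chr6:41304952-41305011, that of Ctrb1 at chr8:110288643-110288702, that of Ctrl at chr8:104531450-104531509 and that of Ctrc at chr4:141217153-141217212. For Try5 the files give chr6:41242856-41243272, a span of 417 bases for a probe of 60.
Prss2: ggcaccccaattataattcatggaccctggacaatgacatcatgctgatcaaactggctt
Prss3: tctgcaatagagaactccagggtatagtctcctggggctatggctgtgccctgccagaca
Try5: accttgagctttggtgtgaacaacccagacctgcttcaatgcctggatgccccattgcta
Ctrb1: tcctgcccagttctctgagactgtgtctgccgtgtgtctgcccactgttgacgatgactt
Ctrl: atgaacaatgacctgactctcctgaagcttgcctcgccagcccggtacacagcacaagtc
Ctrc: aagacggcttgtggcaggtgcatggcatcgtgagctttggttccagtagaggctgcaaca

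The second probes of Prss3 (chr6:41307911-41307970) and of 2210010C04Rik (chr6:40964789-40964848) read the same stretch of the 2 paralogs. They overlap by 42 bases, of which 34 are identical. Capitals mark the identical bases.
Prss3 second probe: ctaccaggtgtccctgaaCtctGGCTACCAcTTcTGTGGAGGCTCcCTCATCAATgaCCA
2210010C04Rik second probe: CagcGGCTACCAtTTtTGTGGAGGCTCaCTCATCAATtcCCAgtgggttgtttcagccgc
The files give the second Prss3 probe 4 RefSeq accessions, those of Prss3, Try10, Prss1 and Gm5771, so its signal cannot be assigned to 1 trypsinogen gene. The probe of Try5 has 2, that of Try5 and another that matched no gene symbol, so it too may read more than 1 transcript. Cross-hybridisation between the other trypsinogen probes was not tested. The values of the trypsinogen genes are therefore values of probes and may count partly the same RNA.

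Because the genes moved together, their promoters were also read from the RefSeq table (GRCm38.p6), which held 7 of the 9. Try5 and Ctrc are named only. The acinar transcription factor complex around Ptf1a, known as PTF1, binds sites that hold an E-box, of the form CANNTG and often read as CACCTG, and the letters TTTCCC. These motifs were searched on both strands of the 250 bases before each start. CANNTG, which includes every CACCTG, was found in 7 of 7 promoters, against 66.2% of 32851 promoters of all genes. CACCTG was found in 5 of 7, against 17.2%, and TTTCCC in 3 of 7, against 21.9%. Prss2, Prss3 and 2210010C04Rik, among the 5 with CACCTG, are paralogs from the trypsinogen cluster. The genes were also chosen with results of these data known, and the difference of these shares was not tested. Prss2 was the 1 promoter of the 7 with both CACCTG and TTTCCC, which 3.61% of all promoters hold. TATAAA, the letters of a TATA box, was added after the sequences had been seen and was found in 3 of 7, against 12.4%. The 3 promoters shown are those of the gene with both motifs, of a further trypsinogen gene and of the chymotrypsinogen gene with 2 CACCTG matches, each in the direction of the gene. Capitals mark CACCTG and TTTCCC on either strand. Prss2 lies at chr6:41521526-41521775 on the plus strand, 2210010C04Rik at chr6:41035510-41035759 and Ctrl at chr8:105933863-105934112, both on the minus strand.
Prss2 promoter: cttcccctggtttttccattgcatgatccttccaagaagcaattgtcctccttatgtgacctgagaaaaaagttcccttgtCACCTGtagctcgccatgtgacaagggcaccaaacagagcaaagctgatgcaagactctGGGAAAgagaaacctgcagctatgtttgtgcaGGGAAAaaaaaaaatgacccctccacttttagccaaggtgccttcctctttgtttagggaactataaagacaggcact
2210010C04Rik promoter: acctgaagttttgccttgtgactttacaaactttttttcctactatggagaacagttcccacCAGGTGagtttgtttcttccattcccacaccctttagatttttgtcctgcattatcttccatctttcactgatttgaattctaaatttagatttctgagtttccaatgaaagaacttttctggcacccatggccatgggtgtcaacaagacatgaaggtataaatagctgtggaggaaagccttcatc
Ctrl promoter: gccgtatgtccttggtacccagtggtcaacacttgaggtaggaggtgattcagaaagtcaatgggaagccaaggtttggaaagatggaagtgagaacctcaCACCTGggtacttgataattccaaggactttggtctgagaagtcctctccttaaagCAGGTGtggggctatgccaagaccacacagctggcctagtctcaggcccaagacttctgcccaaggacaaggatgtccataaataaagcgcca
Counted from the start of Prss2, with -1 for the last base before it, the CACCTG begins at -169 and the TTTCCC matches at -110 and -78. They lie apart, and whether any spacing of the motifs is that of a PTF1 site was not tested. Closer pairs with CANNTG occur elsewhere. In Ctrb1 a CANNTG begins at -205 and a TTTCCC at -195. In Cpa1 a CANNTG begins at -38 and a TTTCCC, on the opposite strand, at -19. These matches are letters in a window and carry no measurement of binding.

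Each array held 45018 spots, 1639 of them controls, and the array numbers, not read depth, limit the precision. The median signal of the negative controls lay between 62.7 and 74.0 on 3 arrays, and was 156 in Cy3 and 307 in Cy5 on spleen array 1. There 93.1% of probes in Cy3 and 94.7% in Cy5 were well above background, against 64.0% and 67.5% on spleen array 2. All 10 genes of a hepatocyte list were well above background in both liver pools and all 10 of a B and T cell list in both spleen pools. Both pools labelled low NP also carried the genes of the other organ. In spleen, the summed log2 level of the hepatocyte list was 21.13 and 20.55 on the 2 arrays in the pool labelled low NP and 15.66 and 13.62 in the NP pool, against 20.15 to 20.94 over both liver pools. The brightest genes weigh most in such a sum. Of that list, Mup1, Alb and Fabp1 had higher mean levels in low NP spleen than in low NP liver, and all the others had lower ones. In liver, the summed level of the B and T cell list was 16.31 and 16.41 in the pool labelled low NP and 13.12 and 12.31 in the NP pool, against 18.53 to 18.75 over both spleen pools. On both arrays of a tissue the low NP RNA showed these genes, so no value without it can be given. The names low NP and NP below are those of the labels.

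In both organs all 9 protease genes were lower in the NP pool than in the low NP pool, by 1.88-fold to 2.78-fold in liver and by 3.31-fold to 5.64-fold in spleen. A gene was called lower when it was at least 1.5-fold lower on both arrays of a tissue, and it counted as measured when at least 1 colour on each array stood well above background. By this rule 9 of 9 were called in liver, where 3.65% of 16967 measured genes were called lower and 0.0707% higher, and 9 of 9 in spleen, where 6.36% of 18409 were called lower and 0.0435% higher. With each array only centred on its median, in place of loess, the liver count was 0 of 9, with 324 genes called lower and 11 higher, and the spleen count stayed at 9 of 9. Genes past 1.5-fold in opposite directions on the 2 arrays made up 0.242% in liver and 0.136% in spleen. The genes were chosen with this contrast in view, so these counts describe them and test nothing. In RNA from whole tissue, fewer cells of a type and less RNA per cell cannot be told apart. Ratios below are log2 of NP over low NP after loess normalization within each array, and the deposited value table runs the other way, low NP over NP. Levels are log2 signals of a colour on an array after further Aquantile scaling, which gives all arrays the same distribution of mean brightness. A level compares 1 probe between pools and not 1 gene with another.

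Prss2 encodes an anionic trypsinogen. Its level was 14.54 on array 1 and 14.35 on array 2 in the low NP liver pool and 13.22 and 13.15 in the NP liver pool. In spleen it was 16.55 and 16.56 under low NP and 14.53 and 14.34 under NP. The pools of a tissue did not overlap in either organ, and the ratio was -1.33 and -1.19 in liver and -2.02 and -2.21 in spleen.

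Prss3, a second trypsinogen gene, had levels of 15.56 and 15.50 in low NP liver and of 14.14 and 14.13 in NP liver. Its spleen levels were 17.55 and 17.40 under low NP against 15.33 and 14.78 under NP. The liver ratios, -1.42 and -1.37, differed less between arrays than those in spleen, -2.22 and -2.63. The second Prss3 probe gave a mean ratio of -1.39 in liver and -2.41 in spleen, and the brightest one -1.39 and -2.42, so both probes gave nearly the same change.

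Try5 showed the largest change of the 9 genes in liver. It had 14.94 and 14.87 in low NP liver and 13.49 and 13.37 in NP liver, with ratios of -1.45 and -1.50. Its spleen levels were 17.10 and 17.04 under low NP and 14.87 and 14.37 under NP, with ratios of -2.23 and -2.66.

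2210010C04Rik, a trypsinogen gene known by its clone name, separated from the other 3 in liver, where it changed less. Its liver levels were 15.36 and 15.39 under low NP and 14.31 and 14.39 under NP, and the ratios were -1.05 and -1.0. The spleen levels were 17.83 and 17.68 under low NP and 15.45 and 15.13 under NP, with ratios of -2.38 and -2.55. Its second probe gave a mean ratio of -0.96 in liver and -2.20 in spleen, against -1.02 and -2.46 for the brightest one. The 4 trypsinogen genes thus lay between -1.48 and -1.02 in liver and between -2.46 and -2.12 in spleen as means of both arrays.

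Among the chymotrypsinogen genes, Ctrb1, which encodes a major chymotrypsinogen, had 12.90 and 12.77 in low NP liver and 11.86 and 11.72 in NP liver. In spleen it had 14.71 on both arrays under low NP and 13.04 and 12.93 under NP. Its ratios, -1.04 and -1.05 in liver and -1.67 and -1.78 in spleen, gave the smallest change of the 9 genes in spleen, a mean of -1.73. Ctrl, for a chymotrypsin-like enzyme, gave 12.90 and 12.83 in low NP liver and 11.97 and 11.93 in NP liver. Its spleen levels were 14.97 and 14.90 under low NP and 13.24 and 13.02 under NP. With ratios of -0.93 and -0.90 it had the smallest mean change in liver, -0.91, and in spleen it had -1.73 and -1.88.

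Ctrc is named after chymotrypsin C, which cleaves and regulates trypsinogens. RefSeq lists the mouse gene as a transcribed pseudogene in GRCm38.p6, the C57BL/6J reference, so its signal is that of a transcript and not of an enzyme. The levels were 15.68 and 15.61 in low NP liver and 14.69 and 14.62 in NP liver, with ratios of -0.98 and -0.99. In spleen they were 17.80 and 17.52 under low NP and 15.99 and 14.71 under NP. The spleen ratios of -1.81 and -2.81 lay farther apart than those of any other of the 9 genes, each 0.50 from their mean. On the scaled levels the NP readings lay farther apart than the low NP readings.

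Of the carboxypeptidases, Cpa1, which takes off aromatic and aliphatic residues, had 15.31 and 15.22 in low NP liver and 14.35 and 14.26 in NP liver. Its spleen levels were 17.34 and 17.26 under low NP and 15.40 and 14.90 under NP. The ratios were -0.97 and -0.95 in liver and -1.94 and -2.36 in spleen. Cpb1, which takes off basic residues, had 15.67 and 16.02 in low NP liver and 14.99 and 14.85 in NP liver. In spleen it had 17.94 and 17.90 under low NP and 15.87 and 14.97 under NP. Cpb1 showed the largest mean change in spleen, -2.50 from arrays at -2.07 and -2.93. It also had the largest gap between arrays in liver, where the ratios of -0.67 and -1.17 each lay 0.25 from their mean of -0.92.

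**Figure D1:**
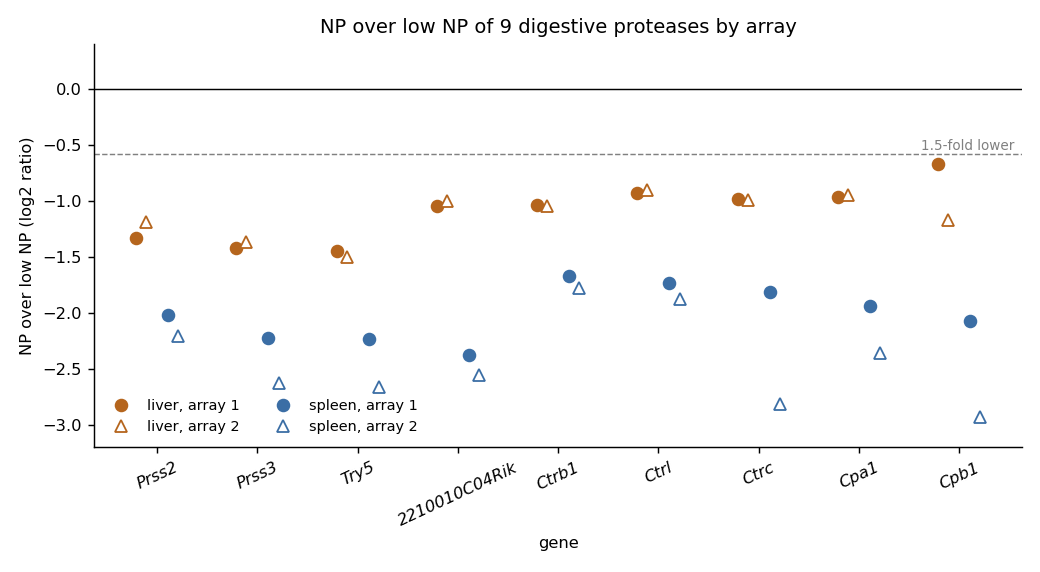
Log2 ratio of NP over low NP (vertical axis) for each of the 9 protease genes, with filled circles for array 1 and open triangles for array 2, liver in brown and spleen in blue, and a dashed line at 1.5-fold lower. All liver points lie between -1.50 and -0.67 and all spleen points between -2.93 and -1.67.

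All 9 genes were well above background in all 8 colour readings and none was saturated. The dimmest reading of any of them was a mean signal of 1974 for the NP pool of liver and 4407 for that of spleen. In spleen the ratio of array 1 was nearer 0 than that of array 2 for 9 of 9 genes, and array 1 is the array with the higher negative controls. With no background correction the spleen median of the proteases was -2.0 on array 1 and -2.55 on array 2. With the correction it was -2.02 and -2.55. The part of the higher negative controls in the gap was not tested, and the share of all genes with array 1 nearer 0 was not counted. In liver array 1 was farther below 0 for 5 of 9.

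The call in liver rests on the normalization within arrays. With the processed signals of the scanner software and with the deposited table it was again 9 of 9. Before any normalization, the raw NP signal on liver array 1 was above the raw low NP signal for 9 of 9 genes, by a median log2 of 0.27, while the 1840 other measured genes of the same brightness had a median of 1.47. On liver array 2 the raw ratios had a median of -2.51 against -1.54 for those genes. When each array was only centred on its median, 0 of 9 proteases were called lower in liver, 5 of 9 stayed below 0 on both arrays, and the median ratio was -0.22 on array 1 and -1.47 on array 2. Equally bright genes then had a median of 0.93 and of -0.50. Relative to those genes, and as means of both arrays, the median of the proteases was 0.99 lower with loess and 0.97 lower with median centring. In spleen 9 of 9 stayed called with median centring, at a median of -2.59.

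**Figure D2:**
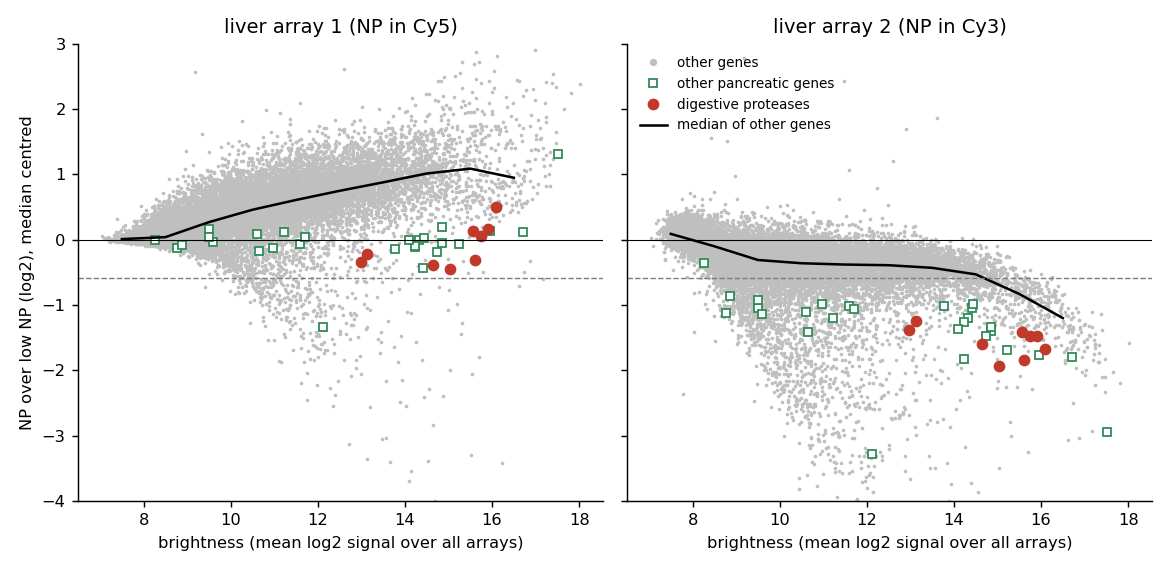
Log2 ratio of NP over low NP in liver after median centring alone (vertical axis) against brightness (horizontal axis, mean log2 signal over all arrays) for array 1 on the left and array 2 on the right, with proteases as red circles, other pancreatic genes as green squares, other measured genes in grey, the median of those in steps of 1 log2 unit as a black line and 1.5-fold lower as a dashed line. Bright genes lie above 0 on array 1 and below 0 on array 2, and the proteases lie below the black line on both.

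Across the 4 pools every one of the 9 genes had its highest level in low NP spleen. The low NP spleen pool lay above the low NP liver pool by 1.88 (Ctrb1) to 2.38 (2210010C04Rik) on the log2 scale, with a median of 2.06, and on both arrays for all 9 genes. NP liver was the lowest pool for 9 of 9, below NP spleen by 0.50 (Cpb1) to 1.25 (Prss2), with a median of 0.94, and the readings of these pools overlapped for Cpb1. The low NP liver and NP spleen pools lay next to each other, 0.11 apart in the median, and their readings overlapped for 5 of 9 genes, Prss2, 2210010C04Rik, Ctrc, Cpa1 and Cpb1. With quantile scaling that median turned to -0.08, and with the scanner's processed signals less their 75th percentile low NP liver lay above NP spleen by 1.12, for 9 of 9 genes and with 0 overlapping. The levels of different organs depend on how arrays are scaled. With the same processed signals, the median difference of NP spleen over NP liver turned to -0.07, NP spleen was lowest for 5 genes and NP liver for 4, and the low NP difference was 1.05. Low NP spleen stayed highest for 9 of 9 under each of the 3 scalings tried. How many of all genes have such an order or overlap of pools was not counted, so these counts describe the 9 genes only.

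**Figure D3:**
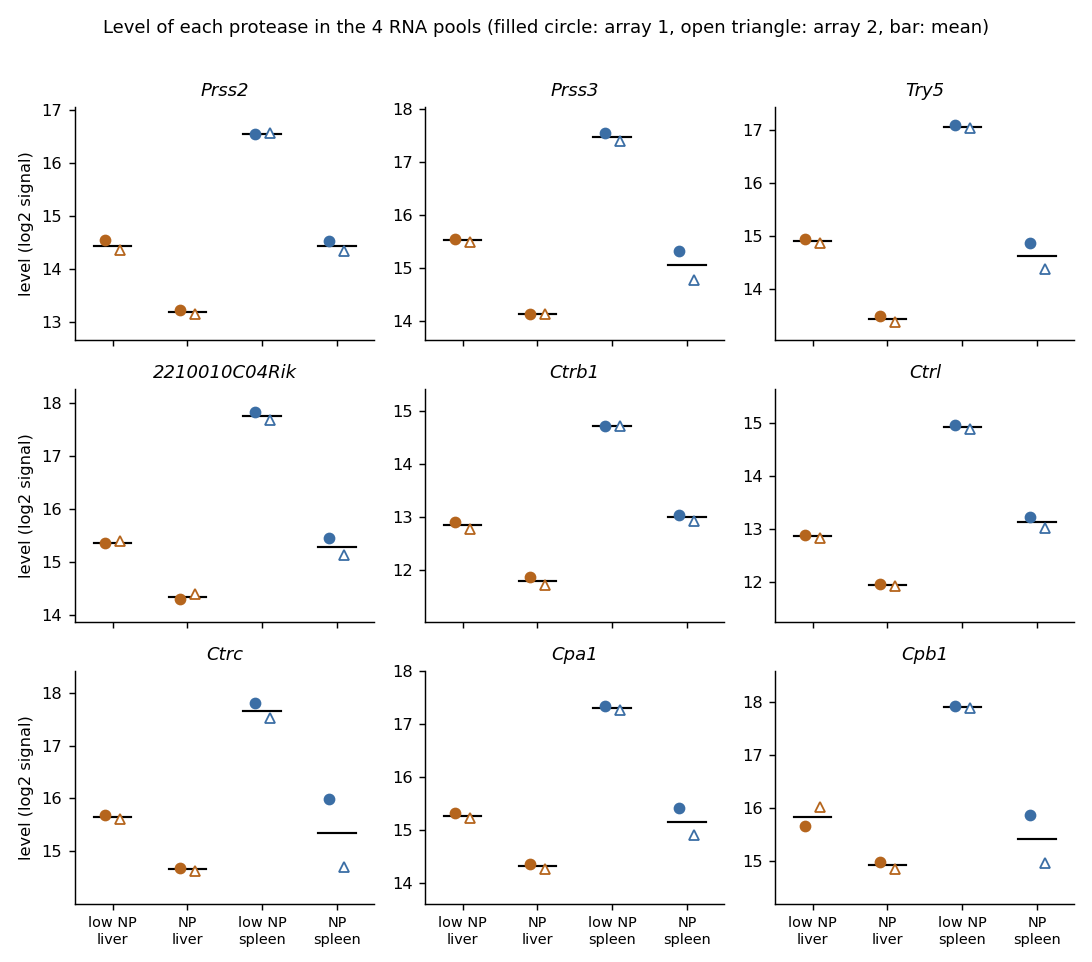
Level of each protease gene (vertical axis, log2 signal after loess and Aquantile scaling, the same height of 4.4 log2 units in each panel) in the 4 pools, with filled circles for array 1, open triangles for array 2, bars for their mean, liver in brown and spleen in blue. In each panel low NP spleen is the highest pool and NP liver the lowest by its mean.

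The change in spleen was larger than that in liver for 9 of 9 genes, and both spleen arrays lay below both liver arrays for all of them. The share of all genes with that order was not counted. Of all measured genes, 6.36% were called lower in spleen and 3.65% in liver. The spleen ratio minus the liver ratio ran from -1.57 (Cpb1) to -0.68 (Ctrb1), while its median over 16484 genes measured in both tissues was -0.02. The genes differed little among themselves, with an SD over the 9 mean ratios of 0.21 in liver and 0.29 in spleen. With 1 replicate per diet and tissue, as counted here, the difference between the tissues cannot be tested.

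The 29 other pancreatic genes on the array are mostly products of acinar cells, such as lipases, amylases, elastases and Reg proteins. Their list was chosen with results of these data known. In liver 27 were measured, 13 were called lower and 0 higher, and the median ratio was -0.83, against 0.00 for all measured genes. In spleen 29 were measured, 26 were called lower and 0 higher, and the median was -2.03, against -0.02. The liver count was 20 with the scanner's processed signals, 20 without background correction, 25 on array 2 alone, 14 on array 1 alone and 1 with median centring. Over all measured genes the number called lower in liver moved too. It went from 620 to 1745, 1328, 1914, 700 and 324 in the same order of settings. The pancreatic genes called in liver were bright, with a median brightness of 14.41 against 10.62 for the 14 not called. Of these 13, 12 were at least as bright as the dimmest protease, against 2 of the 14. Pnlip, the pancreatic lipase gene, had mean ratios of -1.17 in liver and -2.31 in spleen. Amy2, a pancreatic amylase gene, had -1.24 and -2.54, but -1.69 and -3.40 on the spleen arrays singly. Amy1, the brightest of the list, was not called in liver, where its arrays gave -0.22 and -2.36.

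Reg2, which encodes a secreted lectin of the regenerating family, changed more in liver, with arrays at -1.87 and -2.96, than in spleen, with -0.90 and -1.14. The 3 members of the list not called in spleen were Reg3a, Reg3b and Reg3g. Of these Reg3b had -0.09 and -0.10 in spleen, and Reg3a and Reg3g were not measured in liver.

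**Figure D4:**
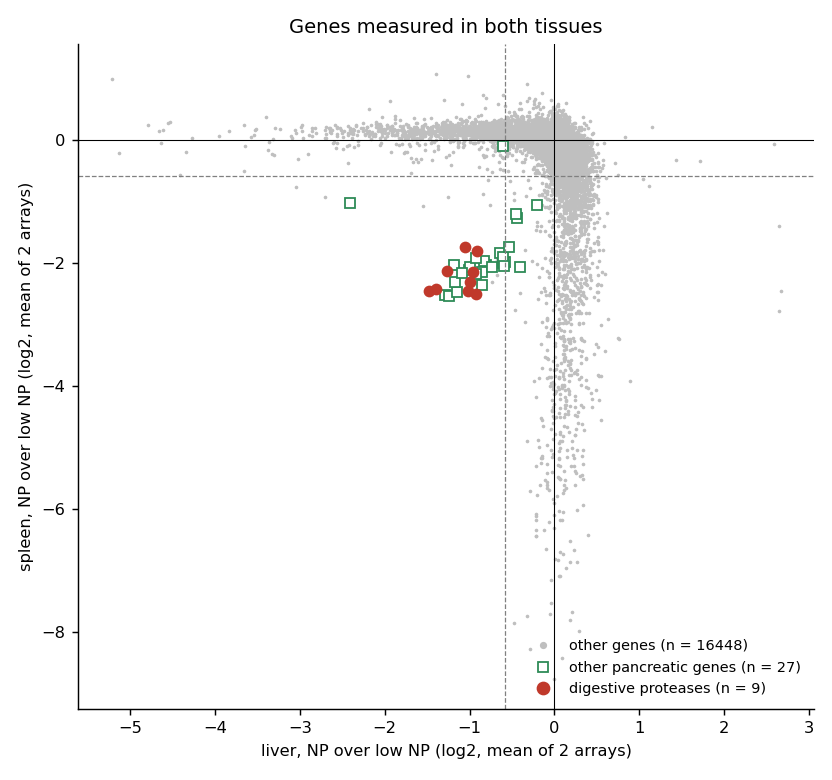
Mean log2 ratio of NP over low NP in spleen (vertical axis) against that in liver (horizontal axis) for genes measured in both tissues, with the 9 proteases as red circles, 27 other pancreatic genes as green squares, the remaining genes in grey and dashed lines at 1.5-fold lower. The proteases lie together at -1.48 to -0.91 in liver and -2.50 to -1.73 in spleen, and 9 of the 28 genes called lower in both tissues are proteases.

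At least 1.5-fold lower on all 4 arrays were 28 of 16484 genes measured in both tissues, 0.17%. They comprised the 9 proteases, 13 of the other pancreatic genes and 6 further genes. Of the 16484 genes, 9 were proteases and 27 other pancreatic genes. Both lists were chosen with results of these data known, so these counts describe them and test nothing. Among the 13 were Amy2, Cel, Cela1, Cela2a, Cela3b, Clps, Pnlip, Pnliprp1, Reg1, Reg2, Rnase1 and Sycn. The other 6, named here after their values had been seen, included Ighg1 at -1.55 in liver and -1.07 in spleen, Nupr1 at -0.76 and -1.05 and Moxd1 at -0.84 and -0.87. The remaining 3 are the clone BC002112 and the immunoglobulin light chain entries X12401 and ENSMUST00000089796. With median centring 4 genes were left, 0 of them proteases, and with processed signals the count was 37 with all 9.

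The genes most like the proteases over the 8 colour readings were found by the distance of each gene's centred log2 levels from the mean of the 9, a description over readings that share 4 pools. Of 16475 genes ranked, Pnlip came closest at 0.18, followed by Sycn (0.31), which encodes a zymogen granule protein, and Cel (0.31), a lipase gene. Clps (0.39), Cela3b (0.49), Cela2a (0.52), Rnase1 (0.52), Zg16 (0.53) and Klk1b5 (0.57) were also among the 10 closest. Of these 10 genes 9 are in the list of other pancreatic genes, which was chosen with results of these data known. The 9 proteases themselves lay at 0.20 (Cpa1) to 0.63 (Ctrc), and the median of all ranked genes was 3.37. Cela3b, an elastase gene, had mean ratios of -1.15 in liver and -2.47 in spleen.

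The acinar factor, islet and duct lists hold few measured genes in liver, where 3.65% of all measured genes were called lower, so a count of 0 there says little. Of the acinar transcription factor list, 8 genes were measured in liver, 0 were called and the median was 0.13. In spleen 8 were measured, 3 were called lower and the median was -0.69. They included Nr5a2 and Foxa2, which hepatocytes also express, and in the low NP spleen pool hepatocyte genes were high as given above. Xbp1, a regulator of secretory cells and the brightest of the list, had 0.05 in liver and -0.40 in spleen. Ptf1a, named after its values had been seen, was not measured in liver and had 0.32 and -0.67 on the spleen arrays. Of the islet list, 6 genes were measured in liver with 0 called and a median of 0.01. In spleen 9 were measured and 1, Ttr, was called, a transthyretin gene that is also in the hepatocyte list, with a median of -0.20. Ins2, an insulin gene, had mean ratios of 0.04 in liver and -0.68 in spleen, where its arrays gave -0.06 and -1.30. It was dim, with mean levels of 7.73 in low NP liver, 7.77 in NP liver and 8.96 in low NP spleen. In NP spleen only 1 of its 2 readings was well above background. The summed log2 level of the islet list was 14.01 to 14.55 over the liver pools, 12.83 and 13.02 in low NP spleen and 12.16 and 11.70 in NP spleen. Ttr had a mean level of 13.89 in low NP liver, 14.26 in NP liver, 11.92 in low NP spleen and 7.92 in NP spleen. It was the brightest gene in that sum in all pools except NP spleen, where Ins2 had 8.28. The next brightest in liver, Pcsk2, had 8.09 under low NP and 8.08 under NP, so the liver sums are mainly the signal of Ttr. In NP spleen 5 of the 18 islet genes on the array were well above background, so that sum is mainly signal near background.

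The duct list had 8 measured genes in each tissue, with 0 called in liver (median 0.07) and 2, Onecut1 and Spp1, in spleen (median -0.18). Of the intestinal list, 5 genes were measured in liver with 1 called, Lyz1, a lysozyme gene, and 6 in spleen with 2 called, Fabp2 and Tff3, at medians of -0.03 and -0.15. In low NP liver Onecut1, Spp1, Fabp2 and Tff3 had mean levels of 12.11, 12.74, 15.46 and 12.21. In low NP spleen they had 10.37, 11.06, 13.36 and 10.47, and in NP spleen 8.0, 8.5, 7.98 and 8.0. Lyz1 had 16.32 in low NP spleen, 14.5 in low NP liver and 12.57 in NP liver. The part of RNA from the other organ in these calls was not tested. None of the 6 measured adipocyte genes was called in either tissue, with medians of 0.14 in liver and -0.14 in spleen. The hepatocyte list moved in spleen, where 10 of 10 were called lower at a median of -7.38. In liver 0 of 10 were called, with medians of 0.58 on array 1 and -0.69 on array 2, which lie on opposite sides of 0. The B and T cell list moved in liver, with 8 of 10 called lower at a median of -3.04. In spleen 0 of 10 were called, with medians of 0.08 and 0.09 on the arrays. Mup1, a urinary protein gene of hepatocytes, had a level of 19.08 in low NP spleen, 11.24 in NP spleen and 18.21 in low NP liver. Except for Alb and Fabp1, the other genes of the hepatocyte list were lower in low NP spleen than in low NP liver. Cd79b, a B cell receptor gene, had 14.25 in low NP liver, 9.63 in NP liver and 16.43 in low NP spleen. Thus in each tissue the pool with more protease signal was also the pool with more signal from the other organ, and the part of that in the protease values was not tested.

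**Figure D5:**
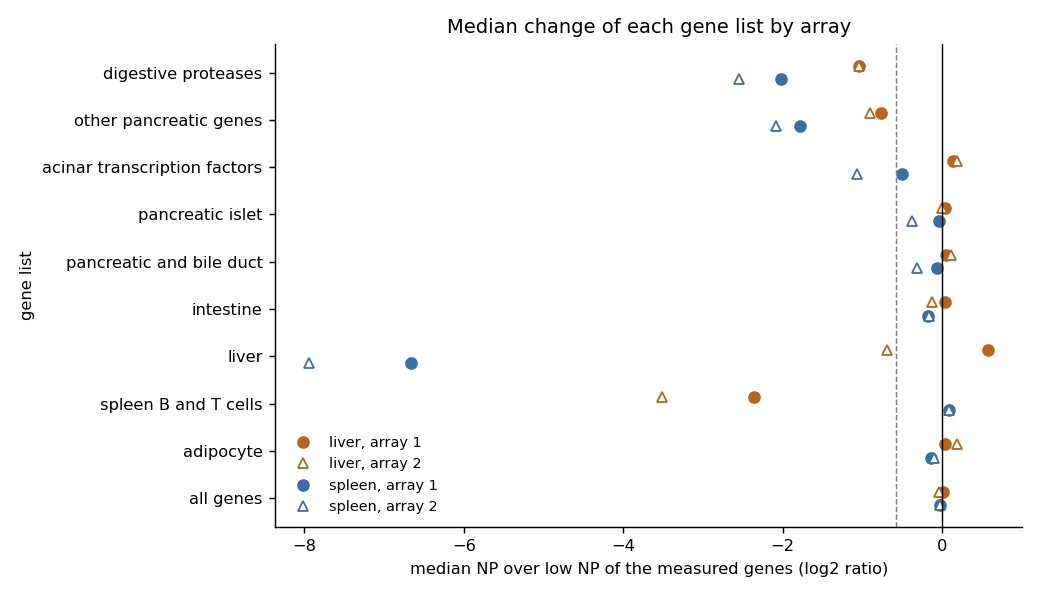
Median log2 ratio of NP over low NP (horizontal axis) of the measured genes of each list (vertical axis), with filled circles for array 1, open triangles for array 2, liver in brown and spleen in blue, and a dashed line at 1.5-fold lower. Of the lists shown, the proteases and the other pancreatic genes lie beyond the dashed line in both tissues, the hepatocyte list on both arrays in spleen and the B and T cell list on both in liver. On array 2 alone the acinar factor list passes it in spleen and the hepatocyte list in liver.

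The genes that activate, inhibit or respond to trypsin were read from a further list. Of 13 on the array, 10 were measured in liver, with 1 called lower and a median of -0.13, and 10 in spleen, with 7 called lower and a median of -1.97. Tmprss15, the enteropeptidase gene, was not measured in either tissue. F2rl1, which encodes a receptor that trypsin cleaves, was measured in spleen only, with arrays at -0.05 and 0.00. The liver gene called was Serpinb1a, a serpin gene of leukocytes, at -1.22 and -1.72, and in spleen it had 0.18 and 0.19. The 7 spleen genes were Serpina1b, Serpina1d and Serpina1e, which encode antitrypsins of hepatocytes, Pzp, an inhibitor gene expressed in liver, Ctsl, a lysosomal protease gene, and the pancreatic genes Serpini2 and Klk1. Serpini2, which encodes a pancreatic serpin, had -0.29 and -0.90 in liver and -1.91 and -2.18 in spleen, so it was not called in liver. Ctsb, a lysosomal protease known to activate trypsinogen, had -0.09 in liver and -0.07 in spleen as means of both arrays.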

How the data were processed

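The deposited scanner files give, per the file headers, the mean and background intensity of each spot in both dyes, the software's processed intensity, flags for spots above background, saturated or not uniform, and a log10 ratio of Cy5 over Cy3. They come from Agilent Feature Extraction 9.5.3.1 per the submitters' processing notes. How the log10 ratios of the deposited value table were made is not stated in the labels. Compared with the scanner ratio, its columns gave correlations of -0.992, 0.991, -0.993 and 0.998, hence low NP over NP throughout, with medians of 0.02, -0.07, -0.01 and -0.04, and its centring stays unknown.

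In limma 3.58.1 (R 4.3.3) the background was corrected by normexp with an offset of 50, and ratios were normalized by loess within arrays, with control and outlier spots at weight 0. Channel levels were then scaled by Aquantile. Names came from a RefSeq table (GRCm38.p6), by accession, symbol or synonym. Tables used Python 3.11.15, numpy 2.4.6 and pandas 2.3.3, and figures matplotlib 3.10.9. The call rule was run on simulated pairs of arrays with as many changes up as down. In the arrays here far more genes were called lower than higher, so that run does not vouch for the liver counts.

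The 9 genes, all lists and the naming rule (all 9 genes, any other pancreatic gene, the 10 most alike genes, the trypsin list and up to 3 brightest genes per marker list) were chosen with earlier results of these data known. Alternatives were no background correction, processed signals, median centring, all probes of a gene, the deposited table, 1 array alone, other filters on dim probes, a 2-fold threshold and other scalings of levels. Ela2 was left out of the pancreatic list because on this array the name is that of neutrophil elastase. A few genes that the naming rule takes are not reported here.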

Additional observations from a re-analysis of the deposited data

How the results depend on the processing

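No paired analysis was possible because the shared replicate numbers are the dye orientations of liver and spleen arrays and no result comes from a test. In spleen all 9 proteases stayed called lower under every alternative run. In liver the count of 9 fell to 0 with median centring and to 4 with a 2-fold threshold, and stayed at 9 under the other alternatives. The liver median of the proteases, -1.02, was -1.01 with processed signals and with the deposited table, -0.99 with the mean of all probes, -0.73 with median centring and -1.05 to -1.04 on single arrays. Of the other pancreatic genes, 13 were called in liver, but 20 without background correction, with processed signals and with the deposited table, 1 with median centring, 5 with a 2-fold threshold and 14 to 25 on single arrays. Their liver median, -0.83, was -0.94 with processed signals, -0.95 with the deposited table and -0.60 with median centring, and their spleen median, -2.03, was -2.08 to -1.78 on single arrays. The spleen minus liver level of the NP pools, 0.94, reversed to -0.07 with processed signals less their 75th percentile. That of the low NP pools, 2.06, was 1.90 with quantile scaling and 1.05 with those processed signals. The cause of these shifts was not tested. No mean ratio of a single protease changed sign under the alternatives run. The median of all genes moved from 0.00 to 0.11 in liver with processed signals and from -0.02 to -0.15 in spleen with median centring. With processed signals 1745 genes were called lower and 297 higher in liver, against 620 and 12, and 1140 and 48 in spleen, against 1170 and 8. In liver 1328 genes were called lower without background correction, 1752 with the deposited table and 324 with median centring. Array 1 alone gave 700 and array 2 alone 1914. Since the arrays of a tissue count as 1 replicate here, neither the spread between mice nor its effect on any value is known.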
